A study of Homo sapiens with 4 samples.

Results

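The MHC class I presentation genes described here are HLA-B, HLA-C, HLA-E, HLA-F, B2M, TAP1, TAP2, TAPBP and PSMB9. They were taken by gene name from the files, which list 60605 genes, and all 9 were found. Their levels were compared between NIH-OVCAR3 cells given etoposide, which traps topoisomerase II on cut DNA, and cells given the vehicle DMSO. NIH-OVCAR3 is a line of high-grade serous ovarian carcinoma grown from malignant ascites. All cultures had first been held for 16 h in 100 ng/mL nocodazole, which blocks mitosis by depolymerising microtubules, then washed and left for 3 h in fresh medium. The etoposide cells then received 1.7 µM etoposide for 24 h, and the DMSO cells received the vehicle for the same time. Each group had 2 libraries, named in the labels as biological replicates of a single line, and no library without nocodazole was analysed here.

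MHC class I molecules display short peptides from inside the cell to CD8 T cells. The proteasome cuts proteins into peptides, the TAP1-TAP2 transporter carries them into the endoplasmic reticulum, and tapasin, the product of TAPBP, holds an empty class I molecule at the transporter until a peptide has bound. The molecule itself is a heavy chain, encoded by an HLA gene, joined to the light chain beta-2-microglobulin, encoded by B2M. HLA-B and HLA-C are classical heavy chains, while HLA-E and HLA-F are non-classical ones with few alleles, and HLA-E is best known as the ligand of the NKG2A receptor on natural killer cells. PSMB9 encodes an inducible catalytic subunit that replaces PSMB6 in the immunoproteasome. These genes are known to be induced together by interferon, through interferon-stimulated response elements (ISRE), and by NF-kB, through kB sites, near their start sites.

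The letters of those 2 kinds of site are shown first, because the members are known to be induced through them. RefSeq promoter windows on GRCh38.p14, which run from 250 bases before to 50 bases after a start site, matched 8 of the 9 members, all but HLA-E. The ISRE was searched as GAAANNGAAA or GAANNGAAA, where N is any base, the NF-kB site by its usual consensus, and the CCAAT box as CCAAT, each on both strands and with overlapping matches kept. The stretches are written 5′ to 3′ on the strand of the gene, with every letter of an ISRE or NF-kB match in capitals.
HLA-B: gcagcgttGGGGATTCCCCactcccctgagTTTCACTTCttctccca
HLA-C: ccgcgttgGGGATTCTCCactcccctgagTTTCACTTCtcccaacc
HLA-F: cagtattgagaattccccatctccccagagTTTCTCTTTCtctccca
B2M: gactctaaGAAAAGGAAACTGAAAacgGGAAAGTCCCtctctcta
TAP1: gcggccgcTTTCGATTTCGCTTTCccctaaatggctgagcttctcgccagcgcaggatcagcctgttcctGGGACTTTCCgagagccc
TAP2: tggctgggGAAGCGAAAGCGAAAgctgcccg
TAPBP: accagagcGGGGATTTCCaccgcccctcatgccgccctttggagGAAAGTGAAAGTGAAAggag

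HLA-B (chr6:31357318-31357364, minus strand) and HLA-C (chr6:31272227-31272272, minus strand) carried the same arrangement, with an NF-kB match followed by an ISRE match read on the opposite strand. Counted from the start site, the ISRE match lay from -155 to -147 in HLA-B and from -151 to -143 in HLA-C. The HLA-F stretch (chr6:29723248-29723294, plus strand) is the one most like that of HLA-B, with 29 of 47 bases identical in place, and it held an ISRE match with no NF-kB match. In B2M (chr15:44711365-44711409, plus strand) a pair of overlapping ISRE matches stood before the NF-kB match. TAP1 (chr6:32853759-32853846, minus strand) had overlapping ISRE matches and an NF-kB match further down. Another NF-kB match of TAP1 lay past its start site, from 22 to 31, outside the stretch shown. TAP2 (chr6:32838780-32838810, minus strand) had ISRE matches only, and in TAPBP (chr6:33314079-33314142, minus strand) the NF-kB match came first. An ISRE match was present in 7 of the 8 members with a window, against 10.6% of all 35116 RefSeq windows. An NF-kB match was present in 5 of them, against 5.91% of all windows, and a CCAAT box in 6, against 34.6%. These counts are of members, while the shares are of windows, and the 8 members had 9 windows. PSMB9 held neither an ISRE nor an NF-kB match in its own window. Its start site faces that of TAP1 at a distance of 488 bases, and the CCAAT box in the PSMB9 window is the same 5 letters as the one at the far end of the TAP1 window (chr6:32853949-32853953). The letters were chosen with these windows in view, a match is a description of the sequence, and binding was not measured.

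**Figure D1:**
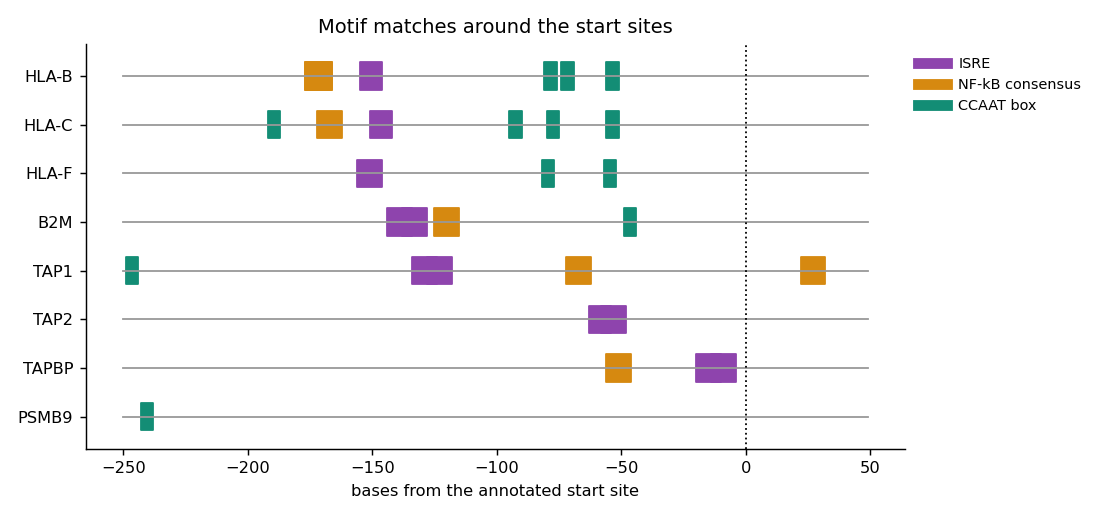
Matches to the ISRE, the NF-kB consensus and the CCAAT box (coloured blocks) in the promoter windows of 8 members, by distance in bases from the annotated start site (dotted line). ISRE matches appear in every window drawn except that of PSMB9, and NF-kB matches in those of HLA-B, HLA-C, B2M, TAP1 and TAPBP.

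The levels are FPKM, that is, fragment numbers divided by transcript length and by the size of the library, summed over the transcripts of a gene. The libraries held 47700000 to 66500000 mapped fragments, as worked out from the ratio of coverage to FPKM and rounded, and between 13482 and 13627 genes reached 1 FPKM. Epithelial and serous ovarian markers were all present, with KRT18 between 611 and 944 FPKM and PAX8 between 214 and 258 FPKM. Leukocyte markers, whose cells would bring class I mRNA of their own, summed to 1.62 and 1.62 FPKM in the etoposide libraries and to 1.83 and 1.61 FPKM in the DMSO libraries over 12 genes. Of these genes 2, CD3D and MS4A1, named after their values were seen, were at 0 in all 4 libraries, and the part of such cells in the results below was not tested. In bulk RNA, fewer cells of a type and less RNA per cell cannot be told apart.

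The members covered a wide range of levels in the same order in both groups. B2M stood first at 206 ± 1.51 FPKM in etoposide cells and 167 ± 7.63 FPKM in DMSO cells (SD, n = 2 each), above 98.8% of the 22185 genes tested. HLA-C followed at 22.3 ± 1.15 FPKM in etoposide cells and 21.9 ± 2.45 FPKM in DMSO cells, and HLA-B at 8.22 ± 0.823 FPKM in etoposide cells and 6.25 ± 0.898 FPKM in DMSO cells. TAPBP, HLA-E and TAP2 came next, with 3.25, 1.56 and 0.621 FPKM in etoposide cells and 3.00, 1.61 and 0.528 FPKM in DMSO cells. PSMB9 and TAP1 stood near the bottom, with 0.0793 and 0.0461 FPKM in etoposide cells and 0.129 and 0.0384 FPKM in DMSO cells. HLA-F was listed at 0 in all 4 libraries, in each of its 15 transcripts. No library's value for a member reached into the range of the member above or below it in this order.

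**Figure D2:**
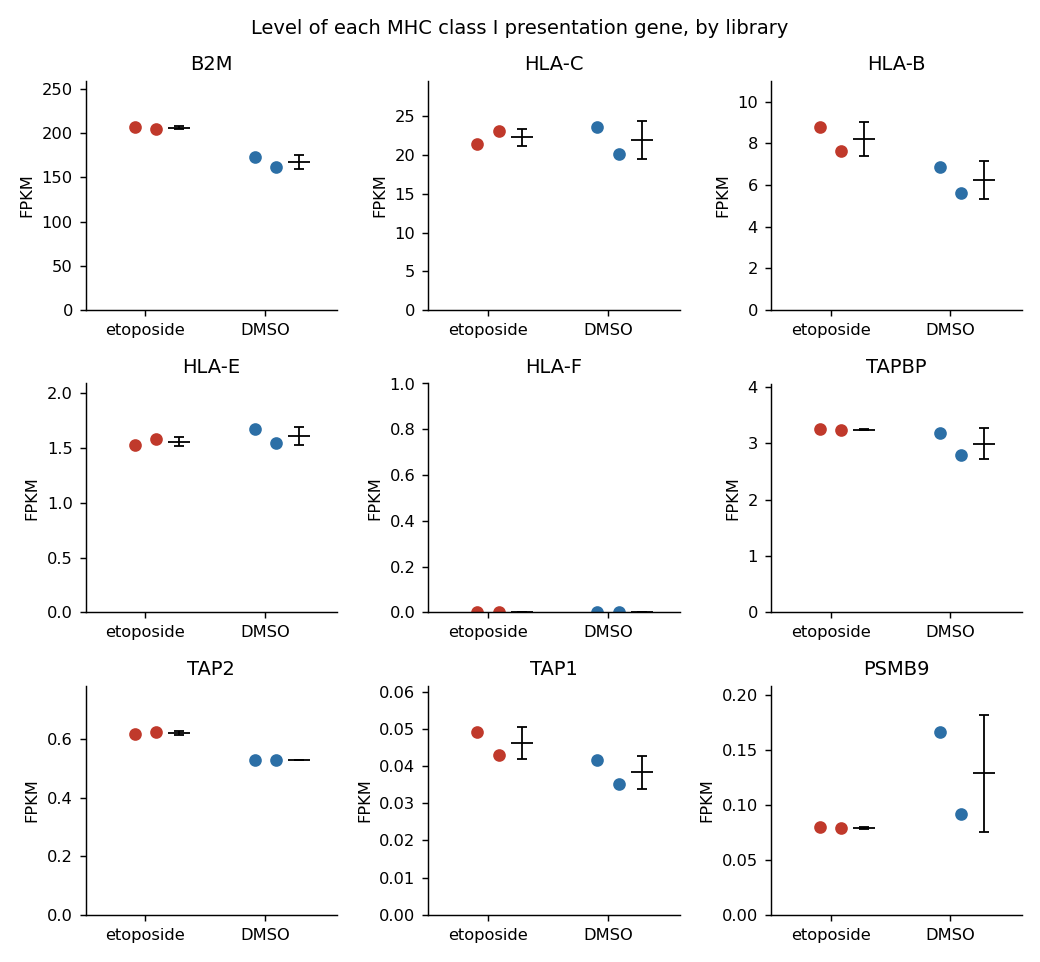
FPKM of each of the 9 members in the 2 etoposide libraries (red points) and the 2 DMSO libraries (blue points), with the mean and SD of each group in black. Each panel has its own scale from 0, and the groups are apart for B2M, HLA-B, TAPBP, TAP2, TAP1 and PSMB9 and overlap for HLA-C and HLA-E.

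No member passed the test between the groups. With limma on log2(FPKM + 0.1) and Benjamini-Hochberg adjustment over all genes, 0 of the 7 members tested had an adjusted p under 0.05, against 0% of the 22185 genes tested. At an unadjusted p under 0.05 there were 2643 genes of the 22185, and 2 members, B2M and HLA-B, both higher, against 7.06% of all genes. With voom on estimated fragments 1 gene passed, and it was no member. HLA-F and TAP1 lay under the filter of a mean of 0.1 FPKM and were not tested. Among the 7 tested members, 4 had both etoposide libraries above both DMSO libraries, against 28.9% of all genes, and 1 had both below, against 19% of all genes. The member below was PSMB9, which passed the filter only through DMSO replicate 1, where it was highest. The median log2 fold change of the 7 members was 0.11, beside 0.04 for all genes tested. It was 0.20 without DMSO replicate 1 and 0.023 without DMSO replicate 2. With 2 libraries in each group, an exact permutation test of a single gene cannot go below a two-sided p of 0.333. Fold changes are on the log2(FPKM + 0.1) scale, which understates changes of low genes.

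B2M (ENSG00000166710, chr15:44711487-44718851, plus strand) was the member with the smallest p. It had 207 and 205 FPKM in the etoposide libraries, against 172 and 162 FPKM in the DMSO libraries. Both etoposide libraries were above both DMSO libraries, and the gap between the groups was wider than that between replicates. The log2 fold change was 0.30 with an SE of 0.07 (limma, adjusted p = 0.306), and the ratio of the means was 1.23. With DMSO replicate 2 left out, B2M passed the test at a log2 fold change of 0.26 (limma, adjusted p = 0.0418), in a fit where 1934 genes passed. Over all alternatives the adjusted p lay between 0.0418 and 0.858. The estimate rested on 9403 to 11422 estimated fragments per library, and a single transcript, ENST00000648006, held between 96.7% and 98.6% of the gene's FPKM in every library. That transcript had 204 and 198 FPKM in the etoposide libraries, against 168 and 158 FPKM in the DMSO libraries.

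HLA-B (ENSG00000234745, chr6:31353872-31357188, minus strand), which presents peptides to CD8 T cells, had 8.80 and 7.63 FPKM in the etoposide libraries, against 6.89 and 5.62 FPKM in the DMSO libraries. The groups did not overlap, but the lower etoposide library lay close to the higher DMSO library. The log2 fold change was 0.39 with an SE of 0.14 (limma, adjusted p = 0.390), and it was 0.54 without DMSO replicate 1 and 0.25 without DMSO replicate 2. Within the groups, replicate 2 was below replicate 1 by 0.20 on the log2 scale among the etoposide libraries and by 0.29 among the DMSO libraries, so the replicates differed by an amount of the same order as the groups. The transcript ENST00000412585 held 92.7% to 95.8% of the gene's FPKM.

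HLA-C (ENSG00000204525, chr6:31268749-31272130, minus strand), the other classical heavy chain among the members, had 21.5 and 23.1 FPKM in the etoposide libraries, against 23.6 and 20.2 FPKM in the DMSO libraries. Both etoposide values fell between the DMSO values, and the log2 fold change of 0.03 (SE 0.10, limma, adjusted p = 0.926) was smaller than the replicate differences of 0.10 and -0.23. Its sign turned in 3 alternatives, among them the common median scaling (-0.042). HLA-E (ENSG00000204592, chr6:30489509-30494194, plus strand) had 1.53 and 1.59 FPKM in the etoposide libraries, against 1.67 and 1.55 FPKM in the DMSO libraries. These groups overlapped too, with a log2 fold change of -0.04 (SE 0.13, limma, adjusted p = 0.906) and a sign that turned with TPM (0.020). HLA-F (ENSG00000204642, chr6:29722775-29738528, plus strand) was listed at 0 throughout, as was HLA-G, the other non-classical heavy chain. Whether reads of HLA-F and HLA-G were dropped or placed elsewhere was not tested, so these values need not mean that the genes were silent. The heavy chain genes are alike in sequence, the classical ones are highly polymorphic, and how reads that fit several of them were handled is not given in the sources used here, so the split of heavy chain reads between HLA-B, HLA-C and HLA-E is uncertain.

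**Figure D3:**
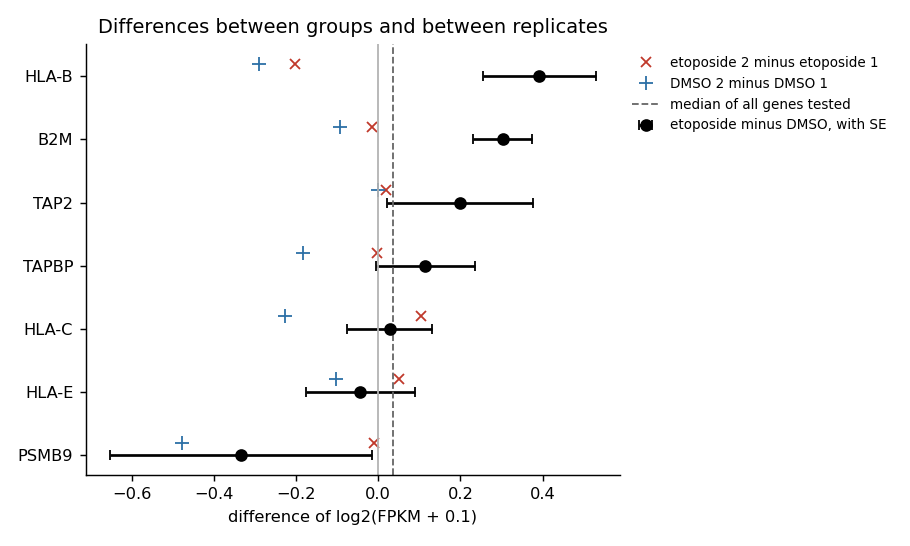
Difference between the etoposide and DMSO groups in log2(FPKM + 0.1) with its SE (black) for the 7 tested members, beside the differences between the 2 replicates of each group (red crosses, blue plus signs). The dashed line is the median of all genes tested, at 0.04. B2M and HLA-B lie farthest to the right, at 0.30 and 0.39, and PSMB9 farthest to the left, at -0.33. PSMB9 passed the filter only through DMSO replicate 1.

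The members of the peptide-loading machinery were low. TAPBP (ENSG00000231925, chr6:33299694-33314387, minus strand) had 3.25 and 3.24 FPKM in the etoposide libraries, against 3.19 and 2.80 FPKM in the DMSO libraries. DMSO replicate 1 was almost level with the etoposide libraries, and the log2 fold change was 0.11 (SE 0.12, limma, adjusted p = 0.699). It was 0.21 without DMSO replicate 1 and 0.023 without DMSO replicate 2. TAP2 (ENSG00000204267, chr6:32821833-32838770, minus strand), one chain of the transporter, had 0.617 and 0.625 FPKM in the etoposide libraries, against 0.528 and 0.527 FPKM in the DMSO libraries. The replicates were close within each group and the groups were apart, with a log2 fold change of 0.20 (SE 0.18, limma, adjusted p = 0.646), or 0.085 with a pseudocount of 1. Its SE, which limma draws towards that of other genes at this level, was far wider than the differences between replicates. On the log2 scale these were 0.018 for etoposide and -0.0016 for DMSO. TAP1 (ENSG00000168394, chr6:32845209-32853816, minus strand), the other chain, had 0.0492 and 0.0431 FPKM in the etoposide libraries, against 0.0415 and 0.0352 FPKM in the DMSO libraries. These values stand for only 6.28 to 7.18 estimated fragments per library, so a difference between the groups was not detectable at this depth.

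PSMB9 (ENSG00000240065, chr6:32844136-32859851, plus strand) was the member with the lowest level among those tested. Only DMSO replicate 1 was above 0.1 FPKM, so PSMB9 passed the filter on the mean through that library alone. It had 0.0799 and 0.0787 FPKM in the etoposide libraries, against 0.167 and 0.0914 FPKM in the DMSO libraries. DMSO replicate 1 stood apart from the other 3 libraries, which were close together. The log2 fold change of -0.33 (SE 0.32, limma, adjusted p = 0.670) rested on 4.68 to 10.4 estimated fragments per library and moved to -0.06 with a pseudocount of 1 and to -0.58 with a pseudocount of 0.01. It was -0.094 without DMSO replicate 1 and -0.57 without DMSO replicate 2. The annotated span of PSMB9 also overlaps those of TAP1, PSMB8 and PSMB8-AS1, and reads from overlapping genes cannot be separated with certainty here.

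Set against their partners, the heavy chains stood at a small share of the light chain. HLA-C amounted to 10.4% and 11.3% of the FPKM of B2M in the etoposide libraries, against 13.7% and 12.5% in the DMSO libraries. HLA-E amounted to 0.739% and 0.774% of B2M in the etoposide libraries, against 0.969% and 0.959% in the DMSO libraries. For both of these ratios the etoposide libraries lay below the DMSO libraries. HLA-B was at 4.25% and 3.72% of B2M in the etoposide libraries, against 3.99% and 3.47% in the DMSO libraries, and here the groups overlapped. HLA-B relative to HLA-C was 41.0% and 33.1% in the etoposide libraries, against 29.1% and 27.8% in the DMSO libraries, and the groups were apart. The 4 heavy chain members together came to 15.6% ± 0.289 of B2M in etoposide cells and 17.8% ± 1.24 in DMSO cells (SD, n = 2 each). The inducible subunit PSMB9 was at 0.151% and 0.160% of PSMB6, the subunit it replaces, in the etoposide libraries, against 0.278% and 0.179% in the DMSO libraries. On the log2 scale the difference in this ratio between the groups was -0.52, and it was -0.21 without DMSO replicate 1 and -0.84 without DMSO replicate 2. TAP1 was at 7.98% and 6.89% of TAP2 in the etoposide libraries, against 7.86% and 6.68% in the DMSO libraries. These ratios are descriptions, with no test. Whether reads of the heavy chain genes were placed elsewhere or dropped, which would lower their ratios to B2M, was not tested.

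Read coverage along the exons differed between the heavy chains. Exons 2 and 3 of a class I heavy chain gene encode the domains that form the peptide groove, and exon 4 encodes the domain next to the membrane. In HLA-B, exon 2 was covered at 0.832 and 0.887 times exon 4 in the etoposide libraries, against 0.629 and 0.788 times in the DMSO libraries. In HLA-C the same ratio was 0.815 and 0.717 in the etoposide libraries, against 0.696 and 0.735 in the DMSO libraries. In HLA-E it was only 0.0142 and 0.0194 in the etoposide libraries, against 0.0377 and 0.0110 in the DMSO libraries. Exon 1 of HLA-E had a coverage of 0 in all 4 libraries, and exon 3 was at 0.155 and 0.173 times exon 4 in the etoposide libraries, against 0.128 and 0.262 times in the DMSO libraries. The HLA-E value was therefore carried by exons 4 to 8, of which exon 8, with 1446 bases, is the longest, in etoposide and DMSO cells alike. Its FPKM is averaged over the whole transcript, so it is lower than the level over those exons. Whether reads from the first exons of HLA-E were placed elsewhere was not tested.

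**Figure D4:**
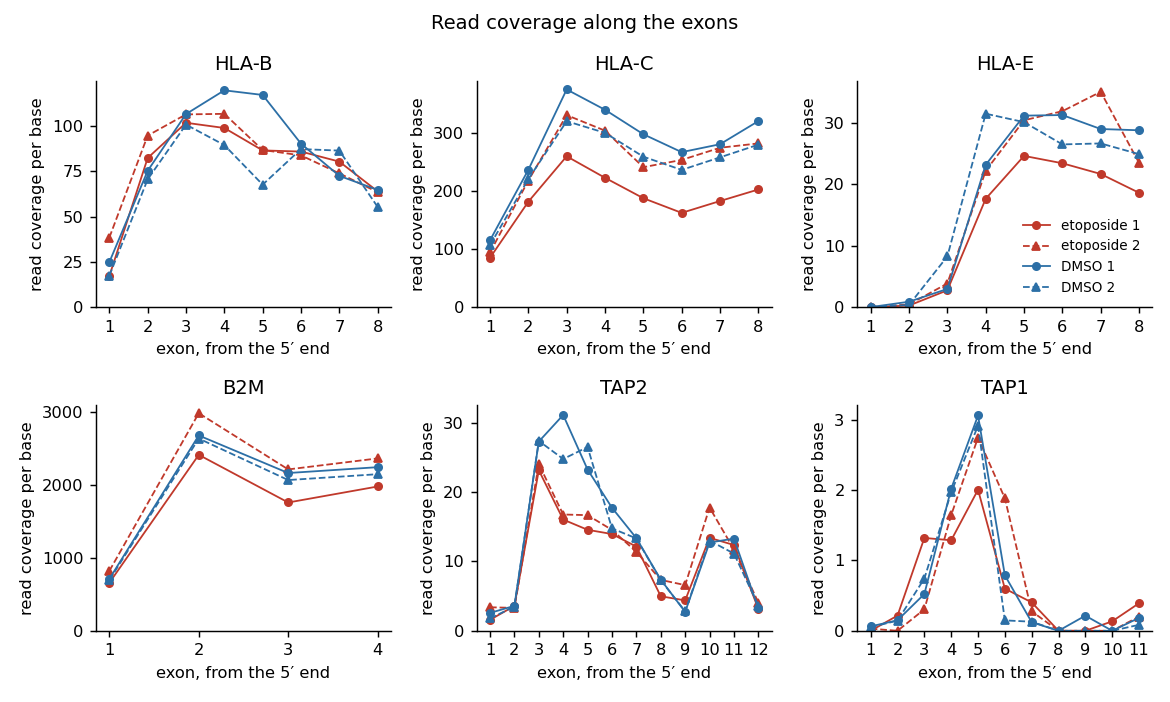
Read coverage per base of each exon, numbered from the 5′ end, for HLA-B, HLA-C, HLA-E, B2M, TAP2 and TAP1 in the etoposide libraries (red) and the DMSO libraries (blue), not scaled for library size. HLA-B and HLA-C are covered in every exon, least in exon 1, HLA-E has almost no coverage before exon 3, and TAP1 has its peak at exon 5 and none at exon 8.

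Coverage of the transporter genes was uneven as well. In TAP1 the few reads sat mainly in exons 4 and 5, which held 52.6% and 65.2% of the estimated fragments in the etoposide libraries, against 72.2% and 80.3% in the DMSO libraries. The TAP1 exons 4 and 5 share 51.4% and 50.5% of their aligned bases with the matching exons 5 and 6 of TAP2. TAP1 exon 8 and TAP2 exon 9 share 90.2%, the highest of the 11 matched pairs. That exon was at 0 in TAP1 in all 4 libraries, and in TAP2 it was covered 4.39 and 6.59 times per base in the etoposide libraries, against 2.73 and 2.80 times in the DMSO libraries. The next TAP2 exon, exon 10, was covered 13.4 and 17.8 times in the etoposide libraries, against 12.7 and 13.0 times in the DMSO libraries. Whether reads that fit both genes were dropped at this exon was not tested. The 2 longest TAP2 transcripts, ENST00000374897 (5643 bases) and ENST00000620123 (5679 bases), traded places between libraries. ENST00000374897 had 0.353 and 0.453 FPKM in the etoposide libraries, against 0.404 and 0 FPKM in the DMSO libraries. ENST00000620123 had 0.212 and 0.0858 FPKM in the etoposide libraries, against 0.0956 and 0.478 FPKM in the DMSO libraries, while their gene total hardly differed between replicates. Of the 74 transcripts of the members, 30 were at 0 in all libraries, 15 passed the filter and 0 of those passed the test. Among all 71340 transcripts tested with limma the count was also 0, with 4121 at an unadjusted p under 0.05.

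The other genes of the pathway were read from lists. Of all 22185 genes tested, 12458 had positive log2 fold changes and 9727 negative ones, and the counts of signs below are to be read beside these. In the list of peptide transport and loading, 7 of 8 genes were tested, 0 passed, and the median log2 fold change was 0.15, beside 0.04 for all genes. The chaperones of the endoplasmic reticulum were far above the dedicated loading factors. Calreticulin, encoded by CALR, had 361 and 357 FPKM in the etoposide libraries, against 401 and 367 FPKM in the DMSO libraries, and PDIA3, the disulfide isomerase bound to tapasin, had 199 and 201 FPKM in the etoposide libraries, against 200 and 212 FPKM in the DMSO libraries. UGGT1, which returns misfolded glycoproteins to calreticulin, had a log2 fold change of 0.25 (SE 0.12, limma, adjusted p = 0.438), and the membrane chaperone calnexin, CANX, one of 0.21 (SE 0.13, adjusted p = 0.518). Without DMSO replicate 2, UGGT1 and CANX passed the test, with log2 fold changes of 0.41 and 0.40, in the fit where 1934 genes passed, while without DMSO replicate 1 these were 0.10 and 0.020 and neither passed. TAPBPL, which edits peptides without the transporter, had between 0.281 and 0.489 FPKM.

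In the list of peptidases that trim or destroy peptides, 9 of 9 genes were tested and 0 passed, with 8 positive values and a median log2 fold change of 0.08. ERAP1, which trims peptides to their final length in the endoplasmic reticulum, had 6.44 and 6.81 FPKM in the etoposide libraries, against 5.17 and 6.17 FPKM in the DMSO libraries, with a log2 fold change of 0.23 (SE 0.12, limma, adjusted p = 0.475). ERAP2, its partner, had 1.21 and 1.21 FPKM in the etoposide libraries, against 0.822 and 1.15 FPKM in the DMSO libraries. LNPEP, an endosomal aminopeptidase used in cross-presentation, had 7.68 and 7.91 FPKM in the etoposide libraries, against 4.57 and 6.92 FPKM in the DMSO libraries, with a log2 fold change of 0.46 (SE 0.19, limma, adjusted p = 0.423). In all 3 of these genes DMSO replicate 1 was the lowest library, and without it the log2 fold changes of LNPEP and ERAP1 were 0.17 and 0.10. The value of LNPEP was 0.19 with the length and GC correction, and it passed the test only without DMSO replicate 2, at 0.76.

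The proteasome lists had negative medians. In the immunoproteasome and activator list, 6 of 6 genes were tested and 0 passed, with 5 negative values and a median log2 fold change of -0.24. PSMB10, the inducible subunit that replaces PSMB7, had 7.98 and 10.1 FPKM in the etoposide libraries, against 11.5 and 10.7 FPKM in the DMSO libraries. PSMB8, which replaces PSMB5, had 0.412 and 0.0973 FPKM in the etoposide libraries, against 0.305 and 0.310 FPKM in the DMSO libraries, so etoposide replicate 2 alone carried its negative value of -0.36 (SE 0.46, limma, adjusted p = 0.759), which became 0.33 without that library. PSME1, a subunit of the proteasome activator PA28, had 35.0 and 36.9 FPKM in the etoposide libraries, against 40.7 and 40.3 FPKM in the DMSO libraries. The constitutive catalytic subunits PSMB5, PSMB6 and PSMB7 lay between 49.3 and 136 FPKM in all libraries, and their median log2 fold change was -0.07, with 0 of 3 passing.

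In the list of genes known to regulate class I molecules, most of them transcription factors, 21 of 21 were tested and 0 passed. There were 16 positive values and a median log2 fold change of 0.07. RFX5, which binds the X box of MHC promoters, had 19.1 and 19.3 FPKM in the etoposide libraries, against 15.2 and 16.1 FPKM in the DMSO libraries, with a log2 fold change of 0.30 (SE 0.08, limma, adjusted p = 0.340). NLRC5, the class I transactivator that is recruited through RFX5, had 0.395 and 0.390 FPKM in the etoposide libraries, against 0.224 and 0.278 FPKM in the DMSO libraries, with a log2 fold change of 0.49 (SE 0.22, limma, adjusted p = 0.435), or 0.16 with a pseudocount of 1. REL, the NF-kB subunit c-Rel, had 3.51 and 3.27 FPKM in the etoposide libraries, against 1.49 and 2.53 FPKM in the DMSO libraries. CREB1, which also takes part in the complex on MHC promoters, had a log2 fold change of 0.43 (SE 0.15, limma, adjusted p = 0.386). Without DMSO replicate 2, RFX5, REL and CREB1 passed the test, with log2 fold changes of 0.34, 1.13 and 0.62, in the fit where 1934 genes passed. Without DMSO replicate 1 these were 0.26, 0.40 and 0.24 and none of the 3 passed, and CREB1 was at 0.17 with the length and GC correction. In the list of interferons, their receptors and kinases, 10 of 15 genes were tested and 0 passed, with a median of 0.07. IL10RB, a chain of the interferon lambda receptor, had 23.4 and 22.4 FPKM in the etoposide libraries, against 29.8 and 29.3 FPKM in the DMSO libraries (log2 fold change -0.37, SE 0.08, limma, adjusted p = 0.287), and it passed without DMSO replicate 2, at -0.38.

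**Figure D5:**
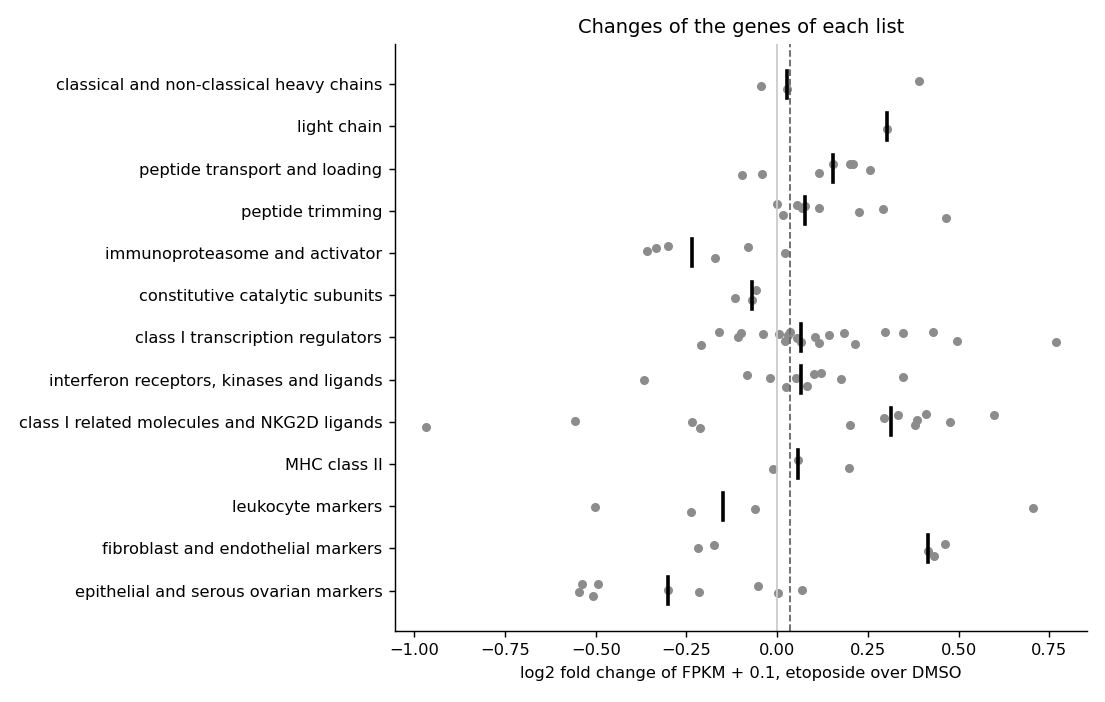
Log2 fold change, etoposide over DMSO, of each tested gene (grey points) in the pathway and marker lists, with the median of each list (black bars) and of all genes tested (dashed line, 0.04). The immunoproteasome and epithelial lists have medians of -0.24 and -0.30, and the class I related list one of 0.31, and none of these genes passed the test.

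Among class I related molecules and ligands of the NKG2D receptor, 12 of 14 genes were tested and 0 passed, with 8 positive values and a median log2 fold change of 0.31. HFE, a class I-like protein of iron metabolism that pairs with beta-2-microglobulin, had 0.441 and 0.379 FPKM in the etoposide libraries, against 0.954 and 0.838 FPKM in the DMSO libraries, with a log2 fold change of -0.97 (SE 0.19, limma, adjusted p = 0.271), or -0.43 with a pseudocount of 1. MR1, which presents vitamin B metabolites, had both etoposide libraries above both DMSO libraries, with a log2 fold change of 0.60 (SE 0.23, limma, adjusted p = 0.405). That value was 0.90 without etoposide replicate 1, 0.29 without etoposide replicate 2 and 0.29 with voom. ULBP3, a ligand of NKG2D, had 4.83 and 4.65 FPKM in the etoposide libraries, against 3.68 and 4.02 FPKM in the DMSO libraries (log2 fold change 0.29, SE 0.11, limma, adjusted p = 0.395). Of the 13 MHC class II genes, 3 were tested and 0 passed. CD74, the invariant chain, had 31.1 and 30.2 FPKM in the etoposide libraries, against 26.7 and 26.7 FPKM in the DMSO libraries, while no other gene of that list reached 1 FPKM in any library. The log2 fold change of CD74 was 0.20, or 0.099 with voom on estimated fragments. The class I heavy chain pseudogenes, which could take reads from the members, were at most 0.00925 FPKM in any library. Whether reads of the members went to other places in the genome or were dropped was not tested.

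Markers of the epithelium and of other cell types were read beside the members. KRT8, KRT18 and KRT19, keratins of simple epithelia, had log2 fold changes of -0.54, -0.51 and -0.49 with both etoposide libraries below both DMSO libraries, and adjusted p-values (limma) of 0.269, 0.267 and 0.267. Without DMSO replicate 2 these 3 keratins passed the test, at -0.67, -0.59 and -0.58. Of the 9 epithelial and serous ovarian markers, 7 had negative values and 2 positive ones. The list summed to 1875 and 1955 FPKM in the etoposide libraries, against 2772 and 2446 FPKM in the DMSO libraries. Most of that difference was KRT8 and KRT18. The positive values were those of EPCAM and CDH1, named after their values were seen. EPCAM had 127 and 134 FPKM in the etoposide libraries, against 124 and 125 FPKM in the DMSO libraries, and CDH1 had a log2 fold change of 0.003. The fibroblast and endothelial markers summed to 9.42 and 9.03 FPKM in the etoposide libraries, against 7.57 and 7.59 FPKM in the DMSO libraries. Most of that difference was COL1A1, a collagen chain, with 6.11 and 5.80 FPKM in the etoposide libraries, against 4.36 and 4.42 FPKM in the DMSO libraries. COL1A2 and LUM, the second of which was named after its values were seen, had both etoposide libraries below both DMSO libraries. The part of these cell types in the values of the members was not tested.

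The genes whose 4 values were most like the average of the 9 members, by the root mean square difference of centred log2 values over the 4 libraries, included SWI5, MED24, NRDE2 and THOP1, out of 11435 protein-coding genes with a mean of at least 1 FPKM. The average profile stood at 0.05 and 0.03 in the etoposide libraries, against 0.04 and -0.12 in the DMSO libraries, so DMSO replicate 2 alone was low in it. All 9 members weigh alike in this average, HLA-F at 0 included. PSMB9, at 4.68 to 10.4 estimated fragments per library, was highest in DMSO replicate 1, and how far it moves the average was not tested. The difference from that profile was 0.0109 for MED24, which had 10.6 and 10.2 FPKM in the etoposide libraries, against 10.4 and 9.28 FPKM in the DMSO libraries. With 4 libraries many genes have a like profile by such a measure.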

How the data were processed

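RNA of NIH-OVCAR3 cells (2 etoposide and 2 DMSO libraries) was sequenced by the authors as paired 100-base reads from a stranded kit and mapped to GRCh38 with HISAT2. Per the file headers, StringTie 2.1.7 estimated known transcripts of Ensembl release 104 with no strand option. The deposited files give read coverage, FPKM and TPM for each transcript, as text attributes; how reads fitting several places were treated is not given in the sources used here. No raw read counts were used, and DESeq2, named in the submitters' processing notes, was not run here. FPKM were summed per gene, genes with a mean of at least 0.1 were kept, and log2(FPKM + 0.1) was tested with limma 3.58.1 (R 4.3.3, trend and robust fitting, Benjamini-Hochberg adjustment, threshold 0.05), after a check on simulated data. Fragments were estimated as coverage times length over 200 bases. Alternatives were other pseudocounts, filters and scalings, TPM, voom on estimated fragments, a length and GC correction, a replicate block and leaving out each library. The members and lists were chosen with earlier results of these data known. Genes named were the members, genes of the loading, trimming and proteasome lists, up to 4 genes with the smallest p of each other list, the 5 nearest profiles and genes overlapping a member; others are marked where they stand, and some named by this rule are not reported here. P-values measure only the spread between these cultures of a single line. Exon identity used hg38 and Biopython 1.88.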

Additional observations from a re-analysis of the deposited data

How the results depend on the processing

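The 7 tested members were refitted under 14 alternatives, which gave 96 values, of which 90 kept their direction and 6 reversed, all of them for HLA-C and HLA-E. Among the alternatives with all 4 libraries, 0 members passed the limma test. Over all genes tested, the count was 1 with voom on estimated fragments and 6 with the length and GC correction, and leaving out a library gave 5 to 1934 genes, 0 to 1 members and a median of 0.023 to 0.20 for the members. The highest of these counts came without DMSO replicate 2, and 5, 98 and 102 genes passed without DMSO replicate 1, etoposide replicate 1 and etoposide replicate 2. Such fits take their spread from the group that still has replicates, and the cause of the differences was not tested. The count of transcripts was 0 under every alternative run.

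With libraries shifted to a common median, the log2 fold change reversed for HLA-C (-0.042) and PSME2 (-0.047). With TPM it reversed for HLA-E (0.020), PDIA3 (0.026) and PSMB5 (0.0094), and with the length and GC correction for HLA-E (0.0030) and PSMB5 (0.01). Leaving out a library reversed HLA-C (-0.086 to 0.14), HLA-E (-0.095 to 0.0067), TAPBPL (-0.16 to 0.47), PSMB8 (-1.05 to 0.33), PSME2 (-0.13 to 0.18), PSMB5 (-0.14 to 0.029) and PSMB6 (-0.23 to 0.0017). With a replicate block the counts of genes and members passing were 0 and 0 and the median of the members was 0.11. Deviations from the group means of same-numbered libraries correlated at 0.0133 over genes, so the numbers were not taken to pair the libraries. Depth limits TAP1 and PSMB9 most, at under 11 estimated fragments in each library. The ratios between partners were recomputed without each library, an alternative chosen after seeing the data, and the ratio of TAP1 to TAP2 and that of HLA-B to B2M changed sign.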
